A study of Homo sapiens with 47 samples.

Results

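In differentiating human embryonic stem cells (hESCs), 130 protein-coding genes were higher in the median of P9 and P10 than at every earlier time point. P9 and P10 were the last passages sampled, and the genes were chosen from 19737 protein-coding genes by a score on the measured levels. The score is log2(TPM + 1) of the median of the 5 P9 and P10 libraries minus the largest log2(mean TPM + 1) among the whole cultures at t0, 36h and P1 to P8. TPM is a level scaled to the library total and corrected for transcript length. The 150 genes with the highest score were taken, and 20 of them whose symbols belong to set-aside families, among them *TWIST1*, *SNAI2*, *DLX5*, *MSX2*, *TFAP2A* and *COL6A1*, were left out. Because the score chose the genes, their levels at P9 and P10 against the earlier time points are given as a description, with no test.

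All 47 libraries came from WA09 (H9) cells, an established hESC line, so that a single genetic background is represented. The t0 cells were undifferentiated, and the 36h cells were NMP-like (neuromesodermal progenitor-like) after 36 h in N2B27 without vitamin A and with the WNT agonist CHIR-99021, the growth factor rhFGF2, the retinoic acid receptor inhibitor AGN193109 and the ROCK inhibitor Y-27632. Cells of P1 to P10 were replated and passaged in the same medium, and came to hold pre-neural progenitors (PNPs) and neural crest (NC) cells. Each time point had 3 independent differentiations, numbered replicates 1 to 3, except P9 with replicates 1 and 2, which gave 35 whole-culture libraries. The other 12 libraries were fractions of P5 and P8, with 3 each of epithelial (EPI, enriched for PNPs) and mesenchymal (MES, enriched for NC cells) fractions separated by how readily TrypLE detached them. Summed over genes, a library held between 13029491 and 64082859 expected counts, and those of P9 and P10 held from 38138216 to 53792522.

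Neural crest cells leave the neural epithelium by an epithelial-to-mesenchymal transition and then give rise to neurons, glia, pigment cells and, in the head, cartilage and bone. Mesenchymal cells of this kind secrete matrix, growth factors and chemokines, and they take positional identity from homeodomain transcription factors. In RNA of a whole culture, a change in the number of cells of a type and a change of RNA per cell cannot be told apart.

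**Figure D1:**
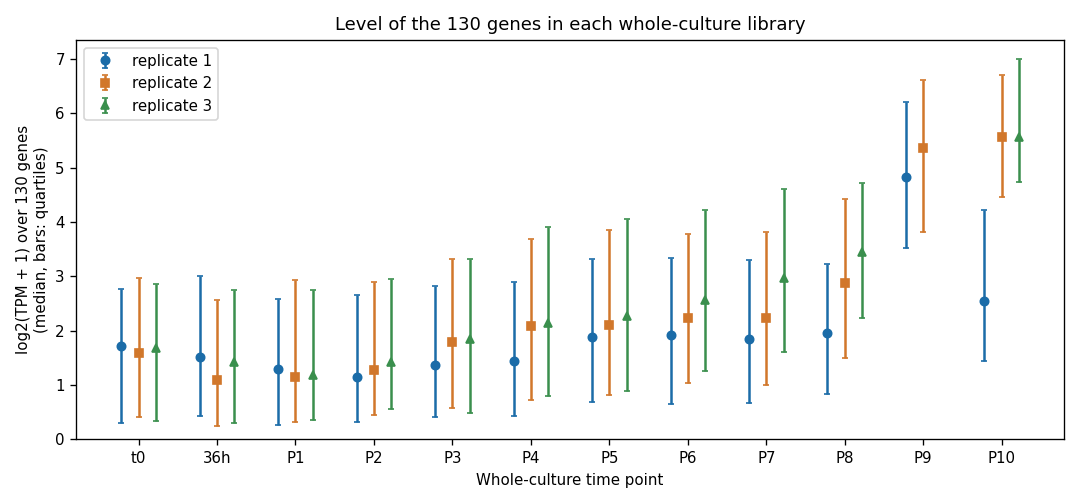
Median log2(TPM + 1) over the 130 genes in each of 35 whole-culture libraries, with bars from the lower to the upper quartile over genes, by time point and replicate. The medians were 4.83, 5.36, 5.57 and 5.57 in P9 replicates 1 and 2 and P10 replicates 2 and 3, but 2.55 in P10 replicate 1.

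One of the 5 late libraries, P10 replicate 1, stood apart from the other four. Its median over the 130 genes was 2.55 on the log2(TPM + 1) scale, against 4.83 in P9 replicate 1, which carries the same replicate number, and 5.36 in P9 replicate 2. It had the lowest value of the 5 late libraries for 124 of the 130 genes and the highest for none. Relative to the P8 mean it was higher for 50 genes and lower for 79, whereas the other late libraries were higher for 126 to 130 genes. Relative to the P8 library of the same replicate number it was higher for 107 genes and lower for 20, with a median difference of 0.48 (log2). The shares over all genes are not given for these counts, and the score used the same libraries, so that nothing particular to the 130 genes is read from them. Over 13070 other protein-coding genes, P10 replicate 1 was nearest to P7 replicate 2, with a root mean square distance of 0.37 (log2), and lay at 0.83 from P9 replicate 1. The other P10 libraries were nearest to a P9 or P10 library. Its values are printed below for part of the genes, and others are given only by the median of the 5 late libraries. With P10 replicate 1 left out of the score, 110 of the 130 genes were still chosen, and the scores of the 130 ran from 1.40 to 5.17 with a median of 2.07 in place of 1.81.

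The markers of PNPs moved with this split of the late libraries. The summed level of *SOX2*, *CDX2*, *NKX1-2*, *NEUROG2* and *FGFR2* was between 13.0 and 37.0 TPM in P9 replicates 1 and 2 and P10 replicates 2 and 3, and between 51.4 and 1058 TPM in the other 43 libraries, with 452 TPM in P10 replicate 1. *SOX2*, a transcription factor of neural progenitors, was at 4.88 and 5.98 TPM at P9, at 0.50 and 0.71 TPM in P10 replicates 2 and 3, and at 214 TPM in P10 replicate 1. *CDX2*, which marks posterior progenitors, was at 7.29, 7.21, 2.76 and 1.24 TPM in the same 4 libraries and at 193 TPM in P10 replicate 1. Of 8 NC markers, *TWIST1*, *SNAI2* and *TFAP2A* were themselves among the 150 genes that the score took. The other 5 (*SNAI1*, *SOX9*, *SOX10*, *TFAP2B* and *PDGFRA*) summed to 148 and 214 TPM at P9 and to 104, 83.0 and 194 TPM in P10 replicates 1, 2 and 3, with P10 replicate 1 within the range of the others for this sum. Its members differed, since *SNAI1* was at 4.89 TPM in P10 replicate 1 and at 31.5 to 77.7 TPM in the other 4, and *SOX9* at 43.0 TPM and at 1.57 to 40.3 TPM. Over all 8 markers the sum was 225 TPM in P10 replicate 1 and 935 to 1144 TPM in the other 4, a difference carried in large part by the 3 genes that the score took. *SOX10* was under 1 TPM in all 5. The part of cell composition in the levels of the 130 genes was not tested.

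**Figure D2:**
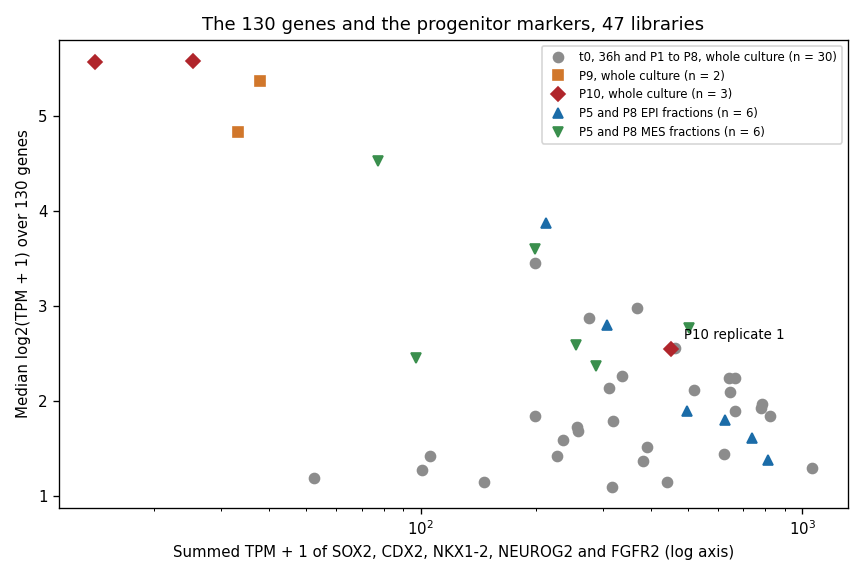
Median log2(TPM + 1) over the 130 genes (vertical axis) against the summed TPM + 1 of 5 PNP markers (log axis) in each of 47 libraries, with symbols for the time points and fractions. P9 replicates 1 and 2 and P10 replicates 2 and 3 lie at the lowest marker sums, 13.0 to 37.0 TPM, and P10 replicate 1 lies among the earlier cultures at 452 TPM.

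Sequence upstream of the start was matched in RefSeq (GRCh38.p14) for 103 of the 130 genes, in windows of 250 bases before to 50 after the start. The letters TATAAA on the sense strand, 40 to 20 bases before the start, where a TATA box lies, were found in 7 of 103 windows (6.80%), against 3.47% of 14862 protein-coding windows. These are shown because 4 of the 7 genes, *AREG*, *IL7R*, *IL10* and *CCL7*, are signalling genes that were nearly silent before P9. Each line gives the 100 bases that end just before the start, 5′ to 3′ on the strand of the gene, with TATAAA in capitals. The positions are *AREG* chr4:74445036-74445135 (plus strand), *PTGS2* chr1:186680424-186680523 (minus), *ID1* chr20:31605189-31605288 (plus), *ECM1* chr1:150508009-150508108 (plus), *IL7R* chr5:35856791-35856890 (plus), *IL10* chr1:206772495-206772594 (minus) and *CCL7* chr17:34270121-34270220 (plus).
AREG: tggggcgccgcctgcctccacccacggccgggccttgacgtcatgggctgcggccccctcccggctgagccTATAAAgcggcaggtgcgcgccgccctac
PTGS2: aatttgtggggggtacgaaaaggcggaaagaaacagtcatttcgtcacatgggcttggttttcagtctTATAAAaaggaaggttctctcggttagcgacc
ID1: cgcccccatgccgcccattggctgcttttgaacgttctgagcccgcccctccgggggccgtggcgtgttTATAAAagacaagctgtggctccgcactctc
ECM1: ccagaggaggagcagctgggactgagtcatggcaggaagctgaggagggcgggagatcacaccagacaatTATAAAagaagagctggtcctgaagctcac
IL7R: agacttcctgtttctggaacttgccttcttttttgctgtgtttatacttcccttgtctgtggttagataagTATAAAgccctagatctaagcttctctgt
IL10: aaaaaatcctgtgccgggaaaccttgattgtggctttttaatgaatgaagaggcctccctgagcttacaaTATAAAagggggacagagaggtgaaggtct
CCL7: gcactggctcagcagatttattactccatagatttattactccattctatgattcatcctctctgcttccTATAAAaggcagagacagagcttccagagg

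In these upstream sequences the letters began between 29 and 32 bases before the start. Over the whole 300-base windows and both strands, TATAAA was found in 14.6% of the 103 genes and 9.35% of all. TGACTCA, which read on the other strand is TGAGTCA, was found in 7 of 103 (6.80%) and 3.69% of all. CAGCTG was found in 13.6% and 17.7%, GGAATG in 8.74% and 11.6%, and CACGTG in 6.80% and 8.94%, and a CArG box in none of the 103 and 1.22% of all. The number of CG pairs per window ranged from 0 to 54 in these genes with a median of 23, and the median over all windows was 22. These counts describe letters and not sites of binding.

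Scores of the 130 genes ranged from 1.37 to 4.77. Their median level at P9 and P10 ranged from 2.09 TPM for *BHLHE23* to 1765 TPM for *APCDD1*, with a median of 35.4 TPM, and 30 genes reached 100 TPM. The late median exceeded the highest earlier mean by 2.61-fold to 80.8-fold, with a median of 4.04-fold. For 61 of the 130 genes the highest earlier mean was that of P8, and for the other 69 it lay elsewhere, with 9 at t0, 8 at 36h and 4 to 10 at each of P1 to P7. The genes just inside the threshold were *BHLHE23* (score 1.39), *PAM* (1.38) and *LRRN4CL* (1.37), and those just outside were *HABP4* (1.36), *ZNF521* (1.36) and *TMTC2* (1.36), so that no gap marks the edge of the group.

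Counted library by library, 104 of the 130 genes in P9 replicate 1, 124 in P9 replicate 2, 128 in P10 replicate 2 and 127 in P10 replicate 3 were above all 30 earlier whole-culture libraries. The shares of all protein-coding genes above all 30 were 11.7%, 12.1%, 9.92% and 11.5%. In P10 replicate 1 the count was 12, and the share of all genes 4.49%. The rule itself fixes most of these counts, and nothing is read from them. A set of 10 genes was above all 30 earlier libraries in each of the 5 late libraries.

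**Figure D3:**
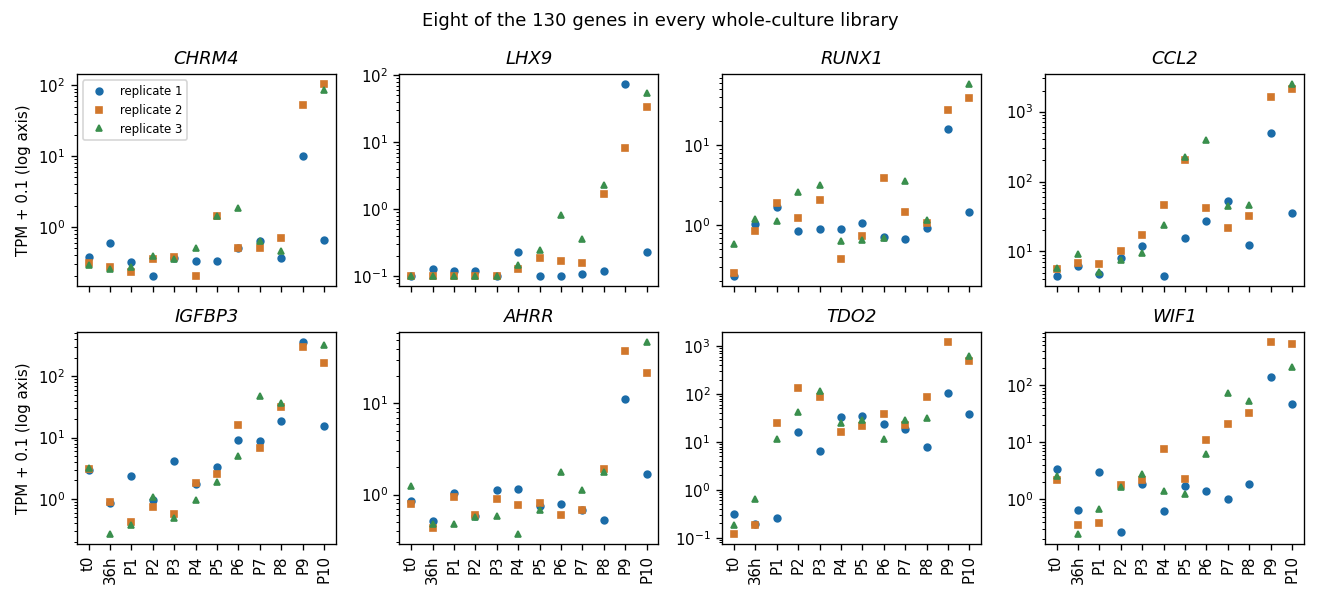
TPM + 0.1 (log axis) of 8 of the 130 genes in every whole-culture library from t0 to P10, with a symbol for each replicate. *CHRM4* did not exceed 1.74 TPM in any of 30 earlier libraries and was at 10.0 to 104 TPM in the late libraries other than P10 replicate 1, where it was at 0.56 TPM.

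The receptors include the gene with the highest score. *CHRM4* (chr11:46385098-46386608, GENCODE 29 on GRCh38), which encodes a muscarinic acetylcholine receptor, was at 0.10 to 1.74 TPM in the 30 earlier libraries. It was at 10.0 and 52.4 TPM in P9 replicates 1 and 2, and at 0.56, 104 and 86.9 TPM in P10 replicates 1, 2 and 3. Among the whole cultures, the late and earlier libraries therefore overlapped through P10 replicate 1 alone. In the fractions, *CHRM4* had 186 counts in P8_EPI replicate 3 and 362 in P8_MES replicate 3. It had 7 to 20 counts in the other P8 fraction libraries and 304 in P9 replicate 1, not scaled to library totals. *BAMBI* (chr10:28677342-28682939), a decoy receptor of the TGF-beta family, was at 322 and 183 TPM at P9 and at 15.0, 198 and 414 TPM at P10, and its highest earlier mean was 18.3 TPM at 36h. *PTH1R*, the receptor for parathyroid hormone and its related peptide, was at 110 and 176 TPM at P9 and at 6.03, 136 and 156 TPM at P10. *HRH1*, a histamine receptor, and *IL7R*, a receptor chain of interleukin 7, had late medians of 8.63 and 2.36 TPM. Of the 10 receptors, 7 were lower in P10 replicate 1 than in the P8 mean, as were 79 of all 130 genes. The other receptors were *SORCS1*, *UNC5B*, *ROBO2*, *PLXNC1* and *CLEC1A*, and the guidance receptors *UNC5B* and *ROBO2* had late medians of 129 and 39.97 TPM.

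The secreted signals were led by chemokine and growth factor genes. *CCL2* (chr17:34255218-34257203), a chemokine that attracts monocytes, was at 498 and 1621 TPM at P9 and at 35.2, 2113 and 2480 TPM at P10. Its levels were already uneven earlier, from 4.31 to 389 TPM over the 30 earlier libraries, and P10 replicate 1 lay inside that range. Its neighbour *CCL7* was listed at 0 TPM in most earlier libraries and was at 0.15, 11.3, 0, 3.90 and 2.12 TPM in P9 replicates 1 and 2 and P10 replicates 1, 2 and 3. *AREG*, an EGF receptor ligand, had its highest earlier mean, 0.13 TPM, at P8 and was at 10.5 and 4.63 TPM at P9 and at 0.27, 17.8 and 41.7 TPM at P10. *IGFBP3* (chr7:45912245-45921874), which binds insulin-like growth factors, was at 365 and 299 TPM at P9 and at 15.3, 162 and 323 TPM at P10. Other than in P10 replicate 1 it was above the range of the earlier whole cultures, 0.17 to 48.0 TPM. *PTHLH*, the ligand of PTH1R, was at 3.18 and 19.99 TPM at P9 and at 2.03, 39.7 and 16.9 TPM at P10. *IL10*, an immune-suppressive cytokine, was at 0.06 TPM in P9 replicate 1, at 3.00 TPM in P9 replicate 2 and at 0.02, 18.5 and 9.64 TPM at P10. *NTF3*, a neurotrophin, *NBL1*, a BMP antagonist, *CYTL1*, a secreted factor of cartilage, and *RBP4*, a retinol carrier, completed this set of 10.

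Transcription factors and chromatin genes made up 25 of the 130. *LHX9* (chr1:197911902-197935478), a LIM homeodomain factor, was at 0 to 2.24 TPM before P9, at 73.8 and 8.14 TPM at P9 and at 0.13, 33.1 and 53.6 TPM at P10. The related *LHX2* was at 438 and 64.7 TPM at P9 and at 39.5, 190 and 363 TPM at P10. *RUNX1* and *RUNX3*, Runt-domain factors of blood and skeletal development, had late medians of 27.6 and 44.1 TPM. *RUNX1* was at 0.13 to 3.75 TPM in the earlier whole-culture libraries and at 1.35 TPM in P10 replicate 1. *AHR*, the aryl hydrocarbon receptor, and its repressor *AHRR* both belonged to the set. *AHR* was at 26.4 and 65.9 TPM at P9 and at 2.32, 36.0 and 219 TPM at P10, and *AHRR* at 11.2 and 37.4 TPM at P9 and at 1.57, 21.3 and 47.7 TPM at P10. *FOSL2*, an AP-1 subunit, *NFIA* and *NFIX*, nuclear factor I members, *PRRX2*, a homeodomain factor of mesenchyme, and *ID1*, a BMP target that inhibits bHLH factors, had late medians of 86.7, 106, 13.6, 38.8 and 513 TPM. *EVX2*, a homeobox gene beside the posterior end of a homeobox cluster, was at 52.9 and 10.6 TPM at P9 and at 5.05, 26.5 and 8.30 TPM at P10. It was one of the genes whose value in P10 replicate 1 exceeded all earlier whole-culture libraries, here of up to 4.57 TPM.

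Enzymes of prostaglandin, tryptophan and steroid metabolism numbered 5, and 4 of them formed 2 pairs of neighbours. *PTGS2*, the inducible cyclooxygenase, and *PLA2G4A*, the phospholipase that frees its substrate, are neighbours on chromosome 1 and had late medians of 16.8 and 13.3 TPM. *AKR1C2* and *AKR1C3*, neighbouring ketosteroid reductases on chromosome 10 whose reads are hard to tell apart, had late medians of 13.1 and 19.2 TPM. *TDO2* (chr4:155854738-155920406), which opens the breakdown of tryptophan to kynurenine, was at 102 and 1239 TPM at P9 and at 37.7, 497 and 613 TPM at P10, after a mean of 68.1 TPM at P3. In all, 7 pairs of the 130 genes were next to each other among protein-coding genes, also *CCL2* with *CCL7*, *ABCA4* with *ARHGAP29*, *MYL3* with *PTH1R*, *CAMK2D* with *ARSJ* and *CSMD3* with *TRPS1*. *MYL3* and *PTH1R* overlap on chromosome 3, and whether counting used strand is not given in the sources used here.

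The WNT modulators numbered 5. *WIF1* (chr12:65050626-65121566), a secreted WNT inhibitor, was at 137 and 575 TPM at P9 and at 47.2, 512 and 209 TPM at P10. *APCDD1*, a membrane inhibitor of WNT signalling and the most abundant of the 130, was at 633 and 3421 TPM at P9 and at 491, 1979 and 1765 TPM at P10, after 480 TPM at P3. *NKD2*, *SHISA3* and *DAAM2*, which also act on WNT signalling, had late medians of 269, 38.0 and 49.4 TPM. The medium contained the WNT agonist CHIR-99021 at every time point after t0.

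Matrix genes included the elastic fibre components *ELN* (late median 22.3 TPM) and *LOX* (31.0 TPM), which crosslinks elastin and collagen. *GLCE* (chr15:69160584-69272217), an epimerase of heparan sulfate synthesis, was at 210 and 359 TPM at P9 and at 31.9, 663 and 450 TPM at P10, against a highest earlier mean of 32.5 TPM. *SRPX2* and *IGSF10*, secreted proteins, were at 35.4 and 31.9 TPM in the late median. Of the 14 matrix and secreted enzyme or inhibitor genes, 8 were lower in P10 replicate 1 than in the P8 mean, as were 79 of all 130 genes.

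Calcium channel genes numbered 7 with their partners. *CACNA1C* (chr12:1970786-2697950), the pore of an L-type channel, was at 46.4 and 23.7 TPM at P9 and at 2.43, 34.8 and 33.5 TPM at P10, and *CACNA1G*, of a T-type channel, at 29.1 and 52.1 TPM and at 4.67, 46.5 and 51.0 TPM. The accessory subunits *CACNG4* and *CACNA2D3* and the kinase *CAMK2D* had late medians of 66.0, 17.8 and 234 TPM.

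The cytoskeletal and lamina set of 15 held *LGALS1* and *LGALS3*, galectins, *LMNA*, which encodes the A-type lamins, *GSN*, gelsolin, and *S100A10*, an annexin partner. *LGALS1* was at 156 and 438 TPM at P9 and at 31.3, 641 and 1021 TPM at P10, and *LMNA* at 63.6 and 188 TPM and at 34.4, 201 and 291 TPM. Genes of neuronal adhesion and peptide processing numbered 11, with *LRRN1*, *DCX*, *PMP22*, *LSAMP*, *PCSK2* and *CPE* among them. *VSTM2A* was at 2.72 and 10.2 TPM at P9 and at 2.08, 11.3 and 9.32 TPM at P10. *DCX*, a microtubule protein of young neurons, was at 35.5 and 6.63 TPM at P9 and at 1.56, 26.6 and 34.6 TPM at P10. *CSMD3*, at 0.32 TPM or less in the mean of any earlier time point, was at 7.67 and 3.01 TPM at P9 and at 0.16, 7.53 and 7.24 TPM at P10. The remaining 28 genes have varied roles, and among them were *NT5E*, which makes adenosine outside the cell, *SFXN3*, of the mitochondrial membrane, *TMEM173* (STING), *IFI44* and *CAT*, catalase. *FAM198B*, with a score of 2.66, was at 33.3 and 18.8 TPM at P9 and at 1.58, 11.9 and 34.2 TPM at P10.

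The 4 late libraries with the gain were not alike among themselves. Against the median of P9 replicate 2 and P10 replicates 2 and 3, P9 replicate 1 was lower by more than 1 on the log2(TPM + 1) scale for 57 of the 130 genes, higher by more than 1 for 9 and within 1 for 64. The genes that were lower included *CHRM4* (-2.99), *TMEM158* (-2.93), *A2M* (-2.68), *TDO2* (-2.57), *PMP22* (-2.43), *PTHLH* (-2.33) and *RUNX3* (-2.05). The 9 that were higher were *SAMD11* (3.08), *EVX2* (2.22), *PI15* (1.81), *PRRX2* (1.79), *SHISA3* (1.37), *LHX2* (1.20), *LHX9* (1.13), *PLXNC1* (1.08) and *NFIX* (1.02). *SAMD11* was at 126 TPM in P9 replicate 1 and at 14.0, 6.90 and 21.4 TPM in P9 replicate 2 and P10 replicates 2 and 3. From P9 to P10 in replicate 2, 83 genes were higher and 47 lower, with a median difference of 0.22 (log2). The differentiations also differed at P8. Replicate 3 was the highest of the P8 libraries for 98 of the 130 genes and replicate 1 the lowest for 108, with medians of 3.45, 2.88 and 1.97 in replicates 3, 2 and 1. The shares over all genes are not given for these counts, among the late libraries or at P8. Nothing particular to the 130 genes is read from them.

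Whether these genes belonged to the mesenchymal or to the epithelial fraction before P9 was asked of the 12 fraction libraries, which the score did not use, although they came from the same differentiations. Markers of the labelled cell types differed between the fractions to varying degrees. *SOX2* was at 214 ± 38.6 TPM (SD, n = 3) in P5_EPI and at 65.7 ± 30.3 TPM in P5_MES, and at 183 ± 104 TPM in P8_EPI and 104 ± 81.4 TPM in P8_MES. *TWIST1* was at 76.1 ± 54.1, 259 ± 52.3, 115 ± 127 and 207 ± 154 TPM in P5_EPI, P5_MES, P8_EPI and P8_MES. Of the 8 NC markers, 7 had a higher mean in the mesenchymal fraction at P5 and 7 at P8. The exceptions were *SOX9* at P8 (81.7 ± 46.9 TPM in P8_EPI and 71.7 ± 52.6 TPM in P8_MES) and *PDGFRA* at P5 (70.2 ± 11.9 TPM in P5_EPI and 60.4 ± 13.1 TPM in P5_MES).

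At P5 most of the 130 genes had higher values in the mesenchymal fraction, and edgeR called none at an FDR under 1%, while DESeq2 did call some. On the log2(TPM + 1) scale, 79 of the 130 were higher in P5_MES than in P5_EPI in all 3 pairs of replicates and 9 were lower in all 3, where 24.7% of the 18885 tested genes were higher and 31.6% lower. Of the 130, 17 were at least 2-fold higher in all 3 pairs and none 2-fold lower, where 0.927% of the tested genes were 2-fold higher. The quasi-likelihood test of edgeR was run on the counts of all 12 fraction libraries together, with the replicate number as a block. A gene was called at an FDR under 1% where it changed at least 2-fold and averaged 100 normalized counts or more. Of the 130 genes, 125 had enough counts to be tested. At P5 none of the 125 passed in either direction, nor did any of the 18885 genes (0%). The replicate block gives P5 and P8 of a replicate number a shared effect, although the EPI and MES fractions of a passage were split from the same culture. A fit with a block for each culture is given below. The median log2 fold change was 1.08 over the 125 genes and 0.00 over all genes, and 104 of the 125 were positive, as were 9523 of all 18885. In edgeR 60 of the 125 had an unadjusted p under 0.05, as had 25.9% of all genes. At an FDR under 1%, DESeq2 called 23 of the 125 higher (1.91% of all genes) and none lower. At an FDR under 5% edgeR called 9 higher (1.39% of all genes) and none lower.

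Those 9 were *RGL1*, *NTF3*, *UBASH3B*, *PRRX2*, *LSAMP*, *PABPC4L*, *CHST2*, *PI15* and *ARHGAP29*. *NTF3* was at 1.59, 5.13 and 7.58 TPM in P5_EPI replicates 1, 2 and 3 and at 5.05, 14.2 and 18.3 TPM in P5_MES, higher in each pair while the ranges of the fractions overlapped. Its log2 fold change was 1.52 ± 0.21 (SE), with an adjusted p of 0.0139 in edgeR. *PRRX2* was at 0.85, 2.07 and 10.99 TPM in P5_EPI and at 2.92, 7.21 and 25.1 TPM in P5_MES, with a log2 fold change of 1.67 ± 0.33 and an adjusted p of 0.0258 in edgeR. *RUNX3* had the largest log2 fold change at P5, 3.35 ± 0.94, with an adjusted p of 0.0644 in edgeR. This change rests on few reads, with 1, 5 and 13 counts in P5_EPI and 25, 37 and 46 in P5_MES. *CCL2* was at 3.18, 133 and 131 TPM in P5_EPI and at 44.3, 493 and 349 TPM in P5_MES.

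Libraries of one culture resembled each other more than libraries of one replicate number across passages. Deviations from the group means correlated at 0.66 (P5) and 0.78 (P8) between fractions of a culture, and at 0.22 to 0.36 between passages. The fitted biological coefficient of variation was 22.8% with the replicate block and 14.7% with a block for each culture. With a block for each culture, which was added after the data were seen, edgeR called 8 of the 125 higher in P5_MES (0.699% of all genes) and 1 lower (0.937% of all genes). The 8 were *BAMBI*, *RGL1*, *AK5*, *UBASH3B*, *PRRX2*, *LSAMP*, *NTF3* and *PABPC4L*. The gene that was lower was *PRSS23*, a secreted protease, at 13.1, 12.7 and 8.73 TPM in P5_EPI and 6.79, 5.64 and 3.37 TPM in P5_MES, groups that did not overlap, with a log2 fold change of -1.05 ± 0.14 and an adjusted p of 0.00657 in edgeR.

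**Figure D4:**
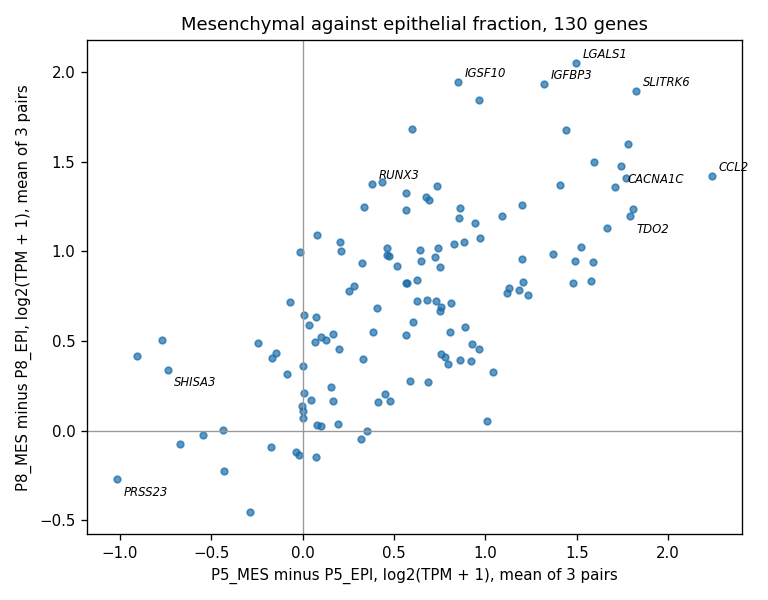
Difference between the mesenchymal and epithelial fractions at P5 (horizontal axis) and P8 (vertical axis) for each of the 130 genes, as the mean over 3 pairs of log2(TPM + 1). Most points lie above 0 on both axes, with *PRSS23* below 0 on both.

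At P8 most of the 130 genes also had higher values in the mesenchymal fraction, and edgeR called none. In all 3 pairs 96 of the 130 genes were higher in P8_MES than in P8_EPI and 4 lower, where 22.7% of the tested genes were higher and 18.0% lower, and 9 were at least 2-fold higher in all 3, where 0.212% of the tested genes were. None of the 125 passed in edgeR in either direction, nor did any of all genes (0%). The median log2 fold change was 0.82 over the 125 and -0.01 over all genes. In edgeR 42 of the 125 had an unadjusted p under 0.05, as had 12.0% of all genes. At an FDR under 1%, DESeq2 called 5 of the 125 higher (0.27% of all genes) and none lower. With the block for each culture edgeR also called none, with 89 of the 125 at an unadjusted p under 0.05 and 21.6% of all genes. *LGALS1* was at 21.2, 29.8 and 97.0 TPM in P8_EPI and at 213, 104 and 213 TPM in P8_MES, groups that did not overlap, and its log2 fold change was 1.91 ± 0.50 with an adjusted p of 0.279 in edgeR. *IGFBP3* was at 9.46, 27.4 and 72.5 TPM in P8_EPI and at 77.0, 86.8 and 177 TPM in P8_MES, which did not overlap either. *IGSF10* had the largest log2 fold change, 2.25 ± 0.71, with an adjusted p of 0.322 in edgeR.

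The difference between the fractions did not change between the passages in a way that the test could show. For the difference of MES minus EPI at P8 against that at P5, edgeR called none of the 125 and no gene of all 18885 (0%), with 7 of the 125 (5.6%) at an unadjusted p under 0.05 and 6.1% of all genes. With the block for each culture edgeR also called none, with 26 of the 125 (20.8%) and 12.3% of all genes at an unadjusted p under 0.05. DESeq2 called none of the 125 and 1 of all 18885 genes. The median of this difference over the 125 genes was -0.21 (log2), and without replicate 3 it was 0.02.

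Between P5 and P8, 105 of the 125 tested genes had positive log2 fold changes in the mesenchymal fraction and 112 in the epithelial fraction, and few passed the test. Of all 18885 genes, 9464 were positive in the mesenchymal and 9686 in the epithelial fraction. In the mesenchymal fraction 2 of the 125 genes, *PI15* and *EVX2*, passed as higher at P8 (0.593% of all genes) and none as lower (0.122% of all genes), and the median log2 fold change over the 125 was 0.98 against 0.00 over all genes. In the epithelial fraction 1 gene, *PI15*, passed as higher (0.233% of all genes) and none as lower (0.0318% of all genes), with a median of 1.19 against 0.01. Without replicate 3 the medians over the tested members were 0.58 in the mesenchymal and 0.65 in the epithelial fraction. *PI15*, a secreted peptidase inhibitor, was at 0.14, 2.08 and 3.22 TPM in P5_MES and at 3.88, 22.5 and 32.1 TPM in P8_MES replicates 1, 2 and 3, and the groups did not overlap. Its log2 fold change was 3.68 ± 0.44 with an adjusted p of 0.00609 in edgeR. In the epithelial fraction *PI15* was at 0.05, 0.38 and 1.52 TPM at P5 and at 0.45, 6.76 and 21.6 TPM at P8, higher in each pair with overlap between the groups, and its log2 fold change was 3.88 ± 0.46 with an adjusted p of 0.00848. *EVX2* had 3, 4 and 1 counts in P5_MES and 18, 295 and 308 counts in P8_MES, so that its fitted log2 fold change of 6.49 ± 0.96 (adjusted p = 0.00968 in edgeR) rests on very few reads at P5. Without the replicate block neither gene passed, at log2 fold changes of 3.29 (*PI15*) and 6.77 (*EVX2*) in the mesenchymal fraction. *PI15* did not pass in the epithelial fraction either, at 4.15. Of all 18885 genes, 1 then passed as higher in the mesenchymal and 0 in the epithelial fraction.

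In all 3 pairs, 18 of the 130 genes were at least 2-fold higher at P8 in the mesenchymal fraction (1.11% of the tested genes) and 4 in the epithelial fraction (0.625%). At an FDR under 5%, 26 of the 125 were higher at P8 in the mesenchymal fraction (2.62% of all genes) and 18 in the epithelial fraction (2.02% of all genes), and none was lower in either. Among those called in the mesenchymal fraction were *RUNX3* (log2 fold change 4.44 ± 0.72), *IGFBP3* (4.21 ± 0.78), *NT5E* (3.78 ± 0.82), *SFXN3* (3.41 ± 0.83), *NFIX* (3.20 ± 0.73), *FOSL2* (2.81 ± 0.49), *AHR* (2.63 ± 0.52) and *LOX* (2.38 ± 0.50). DESeq2 at an FDR under 1% called 37 higher in the mesenchymal fraction (3.24% of all genes) and 27 in the epithelial fraction (2.43% of all genes). Without the filter on low counts, edgeR called 10 higher in the mesenchymal fraction (0.628% of all genes) and 7 in the epithelial fraction (0.378%), and 2 between the fractions at P5 (0.115%). *RUNX3* was at 0.25, 0.42 and 0.71 TPM in P5_MES and at 2.70, 12.3 and 37.2 TPM in P8_MES, and *AHR* was at 0.37, 1.06 and 3.25 TPM and at 1.27, 10.9 and 22.7 TPM, higher in each pair. These calls did not come equally from the 3 differentiations. The median difference between P8_MES and P5_MES over the 130 genes was 0.20, 0.58 and 1.60 on the log2(TPM + 1) scale in replicates 1, 2 and 3, and between P8_EPI and P5_EPI it was 0.10, 0.55 and 1.44. Without replicate 2 none of 127 tested genes of the 130 passed in either fraction, nor did any of all 19123 genes. Without replicate 3 none of 124 passed, nor did any of all 19194 genes. Without replicate 1 there were, of 127, 8 in the mesenchymal fraction (0.855% of all genes) and 14 in the epithelial fraction (1.45% of all genes).

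**Figure D5:**
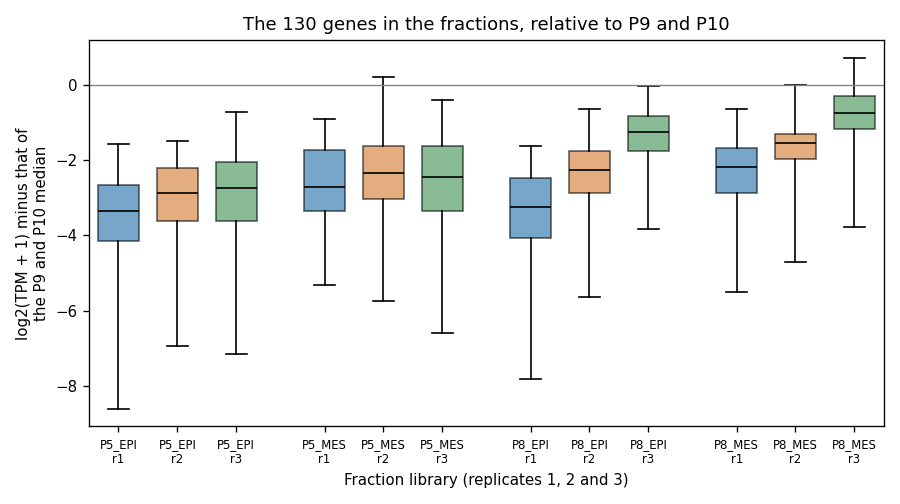
Level of the 130 genes in each of 12 fraction libraries, as log2(TPM + 1) minus that of the P9 and P10 median, with the box from the lower to the upper quartile, the line at the median and whiskers to the lowest and highest gene. The median lay 3.34 below the late level in P5_EPI replicate 1 and 0.76 below it in P8_MES replicate 3, the lowest and the highest of the 12.

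The levels in the fractions are set beside those of the whole cultures as a description, since the score used both the late median and the highest earlier mean. The mean of P8_MES exceeded the highest earlier whole-culture mean for 113 of the 130 genes, that of P8_EPI for 62, P5_MES for 39 and P5_EPI for 2. Over all 19737 protein-coding genes the same was so for 3060, 1734, 2175 and 1491. None of these means exceeded the late median for any of the 130 genes, but that of P8_MES exceeded the lowest late library for 114 and that of P8_EPI for 100, and the lowest late library was P10 replicate 1 for 124 of the 130. Among single libraries, P8_MES replicate 3 exceeded the late median for 15 genes and P5_MES replicate 2 for 1. Over the 130 genes the median log2(TPM + 1) was 2.77, 3.59 and 4.53 in P8_MES and 1.61, 2.80 and 3.87 in P8_EPI replicates 1, 2 and 3, and 2.55 in P10 replicate 1. The gap to the late median was 2.17, 1.55 and 0.76 (log2, median over genes) in P8_MES replicates 1, 2 and 3 and 3.24, 2.26 and 1.25 in P8_EPI, so that replicate 3 was nearest in both fractions. The PNP marker sum ran from 76.4 TPM in replicate 3 to 503 TPM in replicate 1 of P8_MES, and from 212 TPM in replicate 3 to 735 TPM in replicate 1 of P8_EPI, and its part in the levels of these genes was not tested. *AREG*, *IL7R*, *IL10*, *CCL7* and *BHLHE23* had too few counts in the fractions to be tested, with at most 21, 51, 5, 12 and 21 counts in any of the 12 libraries.

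Lists of related genes, chosen with earlier results of these data known, gave the overlaps below as a description, beside the 0.659% of protein-coding genes that the 130 make up. Of 31 genes of skeletal and cartilage development, 5 belonged to the 130 (*RUNX1*, *RUNX3*, *PTHLH*, *PTH1R* and *CYTL1*), and of 40 matrix and elastic fibre genes, 6 did (*ELN*, *LOX*, *ECM1*, *SRPX2*, *IGSF10* and *CRISPLD2*). Of 35 prostaglandin and cytokine genes 6 belonged (*PTGS2*, *PLA2G4A*, *CCL2*, *CCL7*, *IL7R* and *HRH1*), of 25 aryl hydrocarbon and steroid genes 5 (*AHR*, *AHRR*, *AKR1C2*, *AKR1C3* and *TDO2*), of 19 IGF genes 2 (*IRS2* and *IGFBP3*), and of 30 interferon response genes 1 (*IFI44*). None of 21 contractile genes and none of 24 p53 targets belonged. The median score of each list as a whole was below 0, from -1.04 for the contractile genes to -0.03 for the aryl hydrocarbon and steroid genes, so that most listed genes had an earlier time point at or above their P9 and P10 level. In the fractions, 1 of 21 tested skeletal and cartilage genes passed as higher at P8 in each fraction, as did 2 of 38 tested matrix genes, 1 of 23 prostaglandin and cytokine genes and 1 of 24 p53 targets in the mesenchymal fraction alone, where 0.593% of all genes passed as higher in the mesenchymal and 0.233% in the epithelial fraction. No tested gene of the other pathway lists passed, and no gene of any list passed as lower or between the fractions in edgeR. Of the marker lists, 1 of 7 tested melanocyte markers passed as higher at P8 in each fraction. In the epithelial fraction alone, 1 of 8 NC markers also passed as higher.

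Markers of other cell types differed in level and in how they moved. Of 9 blood markers, 7 or 8 were under 1 TPM in each late library, and their sum of 18.1 and 35.7 TPM at P9 and 1.88, 54.9 and 60.1 TPM at P10 was made up in large part by *RUNX1*, itself one of the 130. Endothelial markers summed to 11.7 to 24.5 TPM in the late libraries and skeletal muscle markers to 5.25 to 30.9 TPM. Surface epithelium markers were at 30.2 to 37.4 TPM in the 4 late libraries with the gain and at 283 TPM in P10 replicate 1. The markers of Schwann and satellite glia summed to 160 TPM in P10 replicate 1 and to 191 to 776 TPM in the other 4 late libraries. This sum holds *PMP22*, itself one of the 130 with a late median of 269 TPM, so that its direction is not separate from theirs. Markers of melanocytes ranged from 25.5 to 176 TPM. Those of neurons, which include *DCX*, also one of the 130, were at 236 TPM in P9 replicate 1, 534 TPM in P10 replicate 1 and 620 to 818 TPM in the other 3. Their part in the levels of the 130 genes was not tested.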

How the data were processed

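Polyadenylated RNA of 47 libraries was sequenced as single reads. According to the submitters' processing notes, cutadapt 1.16, STAR 2.5.2b, RSEM 1.3.0 and GRCh38 were used; the annotation release and strand setting are not given in the sources used here. The authors deposited, per gene, RSEM expected counts and TPM (scaled to the library total and length-corrected) for 58051 genes. Of the expected counts, 9.33% were not whole within 0.001, and all were rounded. Symbols, gene types and positions came from GENCODE 29 (57447 genes matched), and upstream sequences from RefSeq.

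The members and gene lists were chosen with earlier results of these data known. Whole cultures were described on the TPM scale without a test between time points, and Dixon's limit served only to pick out a library for description. The 12 fraction libraries were tested in edgeR 4.0.16 (R 4.3.3) with TMM, filterByExpr and Benjamini-Hochberg adjustment over 18885 genes, with DESeq2 1.42.0 as an alternative. Replicate numbers mark independent differentiations, and deviations of same-numbered libraries correlated at 0.22 to 0.78 between fraction groups. On data simulated for P8_MES against P8_EPI (18475 genes), 20 of 50 genes changed by 1 (log2) and 50 of 50 changed by 2 were called, as were 46 of 50 changed by -2 and 2 of 18275 unchanged genes. The simulation gave all genes the same fixed spread and had no differences between replicates or cultures, unlike the real libraries. It therefore checks the code and does not tell what share of real changes of these sizes would be called. Expected counts carry counting error and read assignment error, so that low genes are less precise.

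Named were the 25 highest scores, members in a list, the 5 called members with the largest change per fraction comparison and direction, and the 3 genes on each side of the threshold. Not every gene under this rule is reported here. Other members were chosen after their values were seen, as were the role groups. Lists covered skeletal and cartilage, contractile, matrix and elastic fibre, prostaglandin and cytokine, aryl hydrocarbon and steroid, interferon response, p53 target and IGF genes, and markers of other cell types. Alternatives changed the normalization, filter, tool, block, pseudocount and replicates used.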

Additional observations from a re-analysis of the deposited data

Results flagged for a closer look

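P10 replicate 1 had a median of 2.55 over the 130 genes on the log2(TPM + 1) scale, the lowest of the 5 P9 and P10 libraries. The others were at 4.83, 5.36, 5.57 and 5.57. It stood out by its gap to the nearest library relative to the range of the 5, which exceeded Dixon's 95% limit; chance exceeds it in about 1 in 20 groups. The genes were chosen on these same libraries by a median, which tolerates a low one, so that this gap is a description and no test. The same library had a PNP marker sum of 452 TPM, where the others had 13.0 to 37.0 TPM, and the part of this difference in the median was not tested.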

How the results depend on the processing

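The members called were few, and their number depended on the settings. DESeq2 with the replicate block called 23 higher in P5_MES than in P5_EPI, 5 higher in P8_MES than in P8_EPI, 37 higher in P8_MES than in P5_MES and 27 higher in P8_EPI than in P5_EPI, where edgeR called 0, 0, 2 and 1. Without the count filter edgeR called 2, 0, 10 and 7. Without the replicate block it called 0 in each, where it called 0, 0, 1 and 0 of all 18885 genes higher. The log2 fold changes of *PI15* were then 3.29 (mesenchymal) and 4.15 (epithelial) and that of *EVX2* 6.77, none past the threshold. With a replicate block per culture, chosen after seeing the data, 8 were higher and 1 lower in P5_MES than in P5_EPI. At an adjusted p under 0.05, also chosen after seeing the data, 9 were higher in P5_MES than in P5_EPI, 26 in P8_MES than in P5_MES and 18 in P8_EPI than in P5_EPI. Leaving out 1 replicate gave 0 to 8 in the mesenchymal and 0 to 14 in the epithelial fraction between P5 and P8. Where it gave 0, no gene of all those tested passed either. The cause of these differences was not tested. The median difference of MES minus EPI between P8 and P5 over the members turned from -0.21 to 0.02 without replicate 3, and the medians of the other 4 comparisons stayed positive under each alternative run. Those of P8 against P5 fell without replicate 3, from 0.98 to 0.58 in the mesenchymal and from 1.19 to 0.65 in the epithelial fraction. Of the 130 genes, 79 to 97 were chosen again when a replicate was left out (79 without replicate 2), and 99 to 115 under the other forms of the score. Genes at few counts, such as *EVX2* at P5, are limited by depth.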
